A study of Mus musculus
Mus spretus with 18 samples.

Results

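Exons of mid length, above 60 and below 300 nucleotides, whose length is not divisible by 3 change the reading frame of a coding transcript when they alone are skipped or included. They are called frame-shifting exons here for their length alone, which does not say that the frame was lost in a given transcript. They were taken from the skipped exon (SE) events of F1 hybrid mice, as autosomal events with a minimum of 20 junction reads in both replicates of 2 or more tissues. Of 47963 autosomal events that met the read minimum, 24186 (50.4%) had such a length, in 20447 distinct exons of 8933 genes. In 6855 of them the exon was shared with another such event that differed in its flanking exons, so these events are not independent of each other. The length left a remainder of 1 after division by 3 in 12229 events and of 2 in 11957, and the median length was 119 nucleotides. A biotype was found for 24075 of the events by gene symbol, and 98.9% of these lay in protein-coding genes. Whether an exon lies in coding sequence or in an untranslated region was not analysed here.

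The hybrids had a mother of the common laboratory strain C57BL/6J and a father of SPRET/EiJ, an inbred strain derived from Mus spretus, so that every cell carried one genome of each. Cortex, heart, kidney, lung, spleen and liver were taken at 8 weeks, and embryonic stem cells (ESC) came from separate clones, with 2 replicates per tissue and 14 libraries in all. Hybrid fibroblasts were treated for 4 h with 0.1 µM pladienolide B (PladB), which binds the SF3B complex of the spliceosome, or with DMSO alone, with 2 replicates each. The labels do not say that a replicate number marks the same animal in different organs, and the strain field of both liver libraries is spelled differently from that of the other organs. Junction reads per library ranged from 45055286 to 128494506 in tissues, of which 16486467 to 33274345 fell on these exons, and from 121091735 to 144154268 in fibroblasts. Each of the 21 tissue markers examined had its highest TPM in its own tissue. In cortex, C57BL/6J reads made up 0.062% of the allelic reads of Snrpn, expressed from the father's copy, and 99% of those of Meg3, expressed from the mother's, while in ESC the shares were 50.2% and 34.7%. With 2 replicates, the spread within a group is known only roughly, and in bulk tissue a change in splicing cannot be told apart from a change in the mixture of cells.

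An exon is included when the splicing machinery pairs the splice sites on both of its sides, and skipped when the flanking exons are joined directly. An exon whose length is a multiple of 3 can be left out without disturbing the codons that follow, while an exon of another length changes the frame downstream and often brings in a premature stop codon, which can send the transcript to nonsense-mediated decay (NMD). Many splicing regulators use such exons to limit their own expression, and other genes use them to end a protein early or to change its C-terminus. Percent spliced in (PSI) is the share of transcripts that include the exon, and was computed from inclusion and skipping junction reads, each divided by the effective length of its form. Transcripts removed by decay are counted less, so that PSI describes the transcripts that remain.

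Most of these exons were included in nearly all transcripts. In 19618 events (81.1%) the mean PSI was above 0.9 in every tissue that expressed the event, and in 805 (3.33%) it was below 0.1 in every such tissue. The remaining events included 3760 (15.5%), in 2540 genes, with a mid-range PSI of 0.1 to 0.9 in at least 1 tissue, and 956 (3.95%) were mid-range in every expressing tissue. In 17 events the PSI was below 0.1 in one tissue and above 0.9 in another. Over all 47963 events the shares, in the same order, were 77.7%, 3.38%, 18.8% and 4.86%. From below 0.1 to above 0.9 went 195 of the 47963, and 74 of 16220 events of this length range with a length that is a multiple of 3. These counts were not tested against each other. The median difference between replicates of one tissue was between 0.00679 in kidney and 0.0119 in ESC. Among mid-range exons it was larger, from 0.0397 in kidney to 0.0966 in ESC.

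Exons at the limits of the rule were compared as a description. Of the 468 events of 61 or 62 nucleotides, 18.2% were mid-range in at least 1 tissue, against 20.6% of the 437 events of 58 or 59 nucleotides just below the length limit. At the upper limit, 30% of the 10 events in the last 2 lengths below 300 nucleotides and 5.88% of the 17 events in the first 2 lengths above it were mid-range. Events that entered with exactly 20 reads in their second deepest tissue (47 events) were mid-range in 57.4%, and those that missed with 19 reads (51 events) in 58.8%.

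Frame-shifting exons were set beside exons of the same length range whose length is a multiple of 3 and which keep the frame (16220 events). Frame-shifting exons were mid-range less often in 7 of 7 tissues. In heart 12.7% of 10948 frame-shifting events were mid-range, against 18.3% of 7784 frame-preserving events, and this was the widest gap. In ESC the shares were 10.1% of 16476 and 13.2% of 10868, the narrowest gap. Cortex gave 12.5% against 16.9%, kidney 9.45% against 12.8%, lung 11% against 14.1%, spleen 11.2% against 14.6% and liver 10.4% against 13.9%. The difference averaged -3.77 percentage points with an SD of 0.926 over the 7 tissues (exact two-sided sign-flip test, p = 0.0156, adjusted over the 2 class comparisons p = 0.0312). This p is the smallest that 7 tissues allow, and the tissues share events and animals. Without ESC the difference was -3.89 points, lower in each of the 6 organs, and the adjusted p of the exact test was 0.0625. The smallest p that 6 tissues allow is higher than that of 7, and this difference was at it before adjustment. Median read depth was slightly lower in frame-shifting events, for example 576.5 against 625.2 reads in heart, and with all events thinned to 20 reads the difference was -3.79 points.

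**Figure D1:**
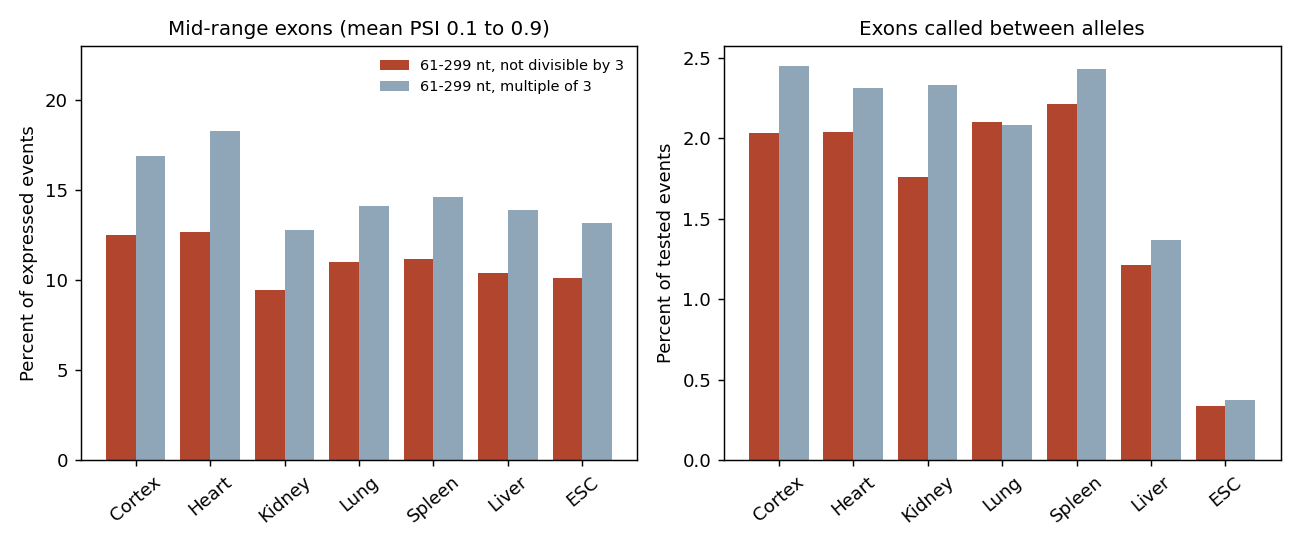
Percent of events per tissue for exons above 60 and below 300 nucleotides whose length is not divisible by 3 (red) or is a multiple of 3 (grey). The left panel shows mid-range events among those expressed, with the red bar lower in 7 of 7 tissues, and the right panel events called between alleles among those tested, with the red bar lower in 6 of 7 tissues and lung as the exception.

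The gap was present over the whole length range. Below 100 nucleotides, 16.7% of 7699 frame-shifting events and 21.6% of 5533 frame-preserving events were mid-range in at least 1 tissue. From 100 to under 150 nucleotides the shares were 14.8% and 17.4%, from 150 to under 200 they were 14.9% and 17.6%, and from 200 upward they were 16.2% and 20.3%. Among frame-shifting exons, the genes of mid-range events had a median TPM of 19.3, against 35.1 for events above 0.9 in every expressing tissue. The intron before the exon had a median of 2042 nucleotides in mid-range events and 2015 in events above 0.9, and the intron after it 2133 and 1796. The remainder was 1 in 50.5% of mid-range events and in 50.7% of events above 0.9.

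Between tissues, a difference was called where the range of tissue mean PSI was 0.1 or more and the adjusted p-value of a quasi-binomial F test, moderated with limma over all events, was under 0.05. Of all 47963 events, 8.39% were called, and 1288 of the 24186 frame-shifting events (5.33%) were, in 1200 exons of 1023 genes. For frame-preserving exons of the same length the number was 1488 of 16220 (9.17%). The median range was 0.0134 over all frame-shifting events and 0.275 over those called. In 650 of the called events the PSI stayed above 0.5 in every expressing tissue, in 227 it stayed below, and in 411 it crossed 0.5. A range of 0.5 or more was reached by 244 frame-shifting events (1.01%) and by 547 frame-preserving events (3.37%). These counts were not tested against each other. In data simulated at these depths with few changed events, 21.5% of the calls of this test were false, and with the prior degrees of freedom set to 4, a stricter setting chosen after the data were seen, 960 frame-shifting events were called.

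Cortex stood at one end of the range most often. Of the 1166 called events that cortex expressed, 385 (33%) had their lowest PSI there and 288 (24.7%) their highest. Liver had the highest PSI in 231 of 898 events (25.7%) and the lowest in 81 (9.02%). Kidney and lung were at an end less often, with 110 and 74 lowest values. ESC, the only cultured cells among the 7, were highest in 208 and lowest in 222 of 1111 events. These shares were taken over called frame-shifting events alone, so they are not shown to be particular to such exons.

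Among the exons named for their tissue range, the widest range was that of Mfn2 (chr4:147902928-147903010, minus strand, 83 nucleotides), whose product mitofusin 2 fuses mitochondrial outer membranes. Its PSI was 0.973 and 0.972 in heart, from 15941 and 15631 reads, 0.116 and 0.115 in lung, 0.0307 in both cortex libraries, and at most 0.0237 in each library of kidney, spleen, liver and ESC. Heart alone included the exon in most transcripts, and the 2 heart libraries lay far above the other 12 (range 0.971, adjusted p = 6.51e-17).

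Of the 12 exons named for their range, 7 had their highest PSI in cortex. Gabbr1 (chr17:37067214-37067364, 151 nucleotides), a subunit of the GABA-B receptor, had a PSI of 0.984 and 0.986 in cortex, against 0.0201 and 0.0258 in spleen, 0.128 and 0.118 in heart and 0.139 and 0.173 in ESC. Its 2 liver libraries, with 30 and 32 reads, gave 0.304 and 0.0159 and so differed from each other by 0.288. Magi1 (chr6:93680789-93680877, 89 nucleotides), a scaffold of cell junctions and synapses, had 0.948 and 0.961 in cortex and 0.588 and 0.721 in heart, and at most 0.0548 in each library of the other 5 tissues. Its relative Magi3 (chr3:104016602-104016692, 91 nucleotides) had 0.887 and 0.928 in cortex, 0.814 and 0.752 in heart, and 0.042 and 0.0275 in spleen. In ESC the Magi3 values were 0.438 and 0.795, so the 2 clones were apart by more than the distance between cortex and heart.

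Ccdc64 (chr5:115651156-115651264, 109 nucleotides), an adaptor of dynein transport, had a PSI of 0.953 and 0.951 in cortex and of at most 0.0964 in each of the other 12 libraries. Map6 (chr7:99317472-99317668, 197 nucleotides), which stabilises microtubules in neurons, had 0.959 and 0.965 in cortex, 0.0334 and 0.0396 in lung and 0.247 and 0.358 in ESC. In Cers5 (chr15:99737547-99737653, 107 nucleotides), a ceramide synthase, the exon was included at 0.914 and 0.908 in cortex and 0.466 and 0.479 in heart, and at no more than 0.0658 in each library of the other tissues. Atp2b4 (chr1:133711642-133711822, 181 nucleotides), a calcium pump of the plasma membrane, had 0.954 and 0.963 in cortex, 0.446 and 0.462 in ESC, and 0.098 and 0.0757 in spleen. In these 4 exons the cortex libraries lay above every other library.

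The exons of the 2 ankyrins, which link membrane proteins to the spectrin skeleton, moved in other directions. Ank1 (chr8:23141596-23141720, 125 nucleotides) had a PSI of 0.971 and 0.978 in heart and 0.963 and 0.957 in cortex, and of 0.0368 and 0.0421 in spleen, a tissue rich in red blood cells. Ank2 (chr3:126926803-126926894, 92 nucleotides) had 0.942 and 0.952 in heart but 0.0309 and 0.0232 in cortex, and the 2 lung libraries, with 27 and 25 reads, had 0.317 and 0.351. Among epithelial genes, the exon of Grhl1 (chr12:24582885-24582961, 77 nucleotides), a transcription factor of epithelia, had a PSI of 1 and 0.967 in lung and 0.036 and 0.00571 in cortex. Cds1 (chr5:101809886-101809973, 88 nucleotides), which makes CDP-diacylglycerol, had 0.99 and 0.959 in kidney, 0.805 and 0.714 in lung and 0.101 and 0.0545 in heart. All 12 exons were called, with adjusted p-values from 6.51e-17 for Mfn2 to 2.94e-06 for Grhl1.

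**Figure D2:**
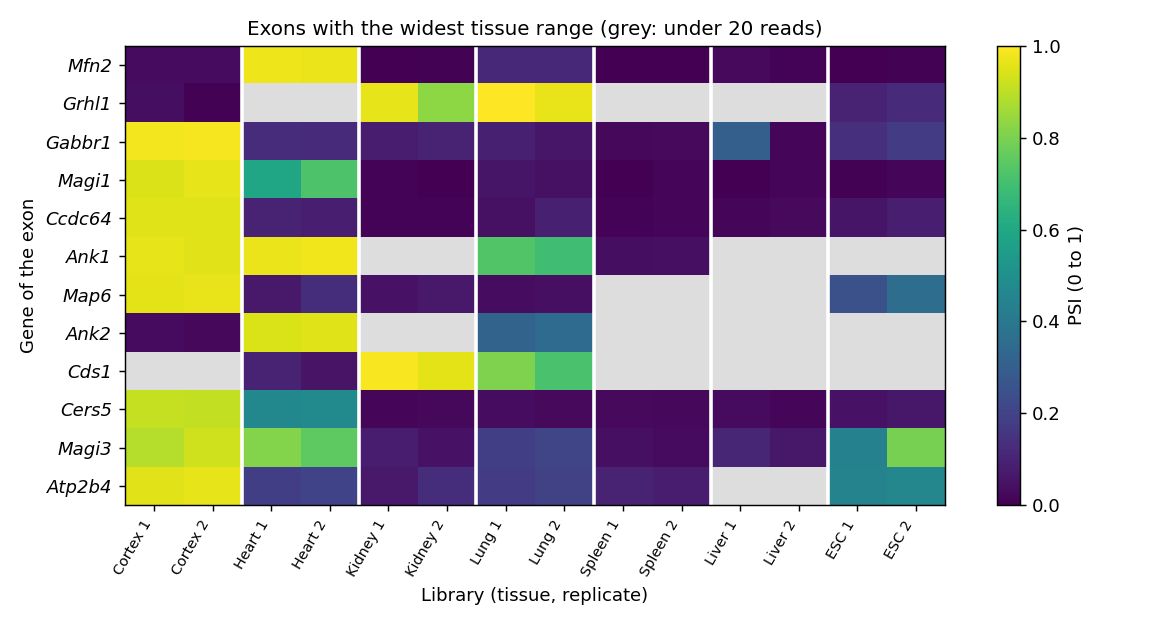
PSI of the 12 exons named for their tissue range, 1 row per gene and 1 column per library. Colours run from 0 (dark) to 1 (yellow), with grey where a tissue had under 20 reads. The range was the widest among called events whose extreme tissues did not overlap and had 50 or more reads per replicate. Cortex is the highest tissue in 7 of the 12 rows. The 2 replicates of a tissue differ most for Magi3 in ESC and Gabbr1 in liver, with smaller gaps such as Grhl1 in kidney (0.963 and 0.829) and Magi1 in heart (0.588 and 0.721).

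Splicing factors and their kinases held 304 of the frame-shifting events, in 91 genes. Of these, 80 (26.3%) were mid-range in at least 1 tissue, against 15.5% over all frame-shifting events, and 51 (16.8%) in 31 genes were called between tissues, against 5.33%. The median range of the list was 0.0113, below the median of 0.0134 over all frame-shifting events. Mbnl2 (chr14:120404638-120404732, 95 nucleotides), a muscleblind regulator of splicing, had its lowest PSI in heart, at 0.14 and 0.123, and its highest in ESC, at 0.8 and 0.944. Srsf11 (chr3:158024698-158024761, 64 nucleotides), an SR-related protein, was included at 0.838 and 0.901 in cortex and at 0.162 and 0.112 in lung, while its 2 liver libraries gave 0.274 and 0.526. Elavl2 (chr4:91311573-91311663, 91 nucleotides), a neuronal RNA-binding protein, was expressed in cortex, with 0.79 and 0.839, and in ESC, with 0.0353 and 0.104.

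Genes known for mutually exclusive exons held 79 events, of which 15 (19%) in 10 genes were called, and sarcomere and muscle genes held 57, of which 9 (15.8%) in 6 genes were called, against 5.33% of all frame-shifting events and 8.39% of all events. Of mutually exclusive exons, 1 of 2 neighbours is chosen, and where both have the same length, inclusion of one and skipping of the other keeps the frame. Whether the exons named here have such a partner was not analysed. Exons of 79 nucleotides in Tpm1, Tpm3 and Actn2 were the leading ones. Tpm1 (chr9:67029664-67029742), a tropomyosin of muscle, had a PSI of 0.997 in both heart libraries and 0.986 and 0.987 in lung, but 0.418 and 0.344 in cortex, and 0.259 and 0.724 in liver from 34 and 25 reads. Tpm3 (chr3:90091013-90091091) had 0.328 and 0.242 in cortex and 0.987 and 0.978 in spleen. Actn2 (chr13:12304314-12304392), the alpha-actinin of the Z-disc, was at 1 in both heart libraries with 49166 and 46632 reads, and at 0.45 and 0.259 in ESC with 29 and 68 reads. Lmo7 (chr14:101931172-101931280, 109 nucleotides), a protein of cell junctions and muscle, had 0.443 and 0.39 in cortex against 0.972 and 0.975 in heart, and its ESC clones differed from each other, at 0.91 and 0.269. Synapse and neuron genes held 107 events, of which 14 (13.1%, against the same 5.33%) in 11 genes were called, led by Gabbr1, Ank2 and Atp2b4.

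Apoptosis genes held 51 events, of which 4 (7.84%) in 4 genes were called between tissues, against 5.33% of all frame-shifting events and 8.39% of all events. Casp2 (chr6:42276870-42276930, 61 nucleotides), an initiator caspase whose exon is known to bring in an early stop, had a PSI of 0.59 and 0.578 in cortex, 0.308 and 0.414 in ESC and 0.0294 and 0.0647 in lung. Mdm4 (chr1:133004654-133004721, 68 nucleotides), an inhibitor of p53, had 0.883 and 0.876 in cortex, 0.967 and 0.782 in liver and 0.384 and 0.609 in ESC. Skipping of an exon of this gene is known to yield an unstable product. Cflar (chr1:58713571-58713659, 89 nucleotides), an inhibitor of caspase-8, had 0.764 and 0.731 in heart and at least 0.931 in each library of cortex, spleen and ESC.

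NMD factors held 48 events, of which 4 (8.33%, near the 8.39% of all events) were called, all in Rnps1, a component of the exon junction complex. The 4 events covered 2 exons of 122 and 181 nucleotides, each with 2 sets of flanking exons. The exon of 181 nucleotides (chr17:24418038-24418218) had a PSI of 0.887 and 0.914 in cortex, 0.606 and 0.601 in heart, 0.657 and 0.523 in ESC, and between 0.218 and 0.295 in each library of kidney, lung, spleen and liver. These values are of the event with a range of 0.668, and the other event of this exon had 0.398. DNA repair genes held 246 events, the second largest list, and 5 (2.03%) of them were called, below the 5.33% over all frame-shifting events. Rad52 (chr6:119913899-119913992, 94 nucleotides), a recombination protein, had 0.376 and 0.493 in cortex and between 0.743 and 0.966 in each of the other 12 libraries. Neil1 (chr9:57143758-57143819, 62 nucleotides), a DNA glycosylase, had 0.599 and 0.598 in cortex and 0.989 and 1 in liver. Msh3 (chr13:92351231-92351451, 221 nucleotides), a mismatch repair protein, had 0.714 and 0.731 in heart and at least 0.978 in each library of cortex, lung and ESC.

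**Figure D3:**
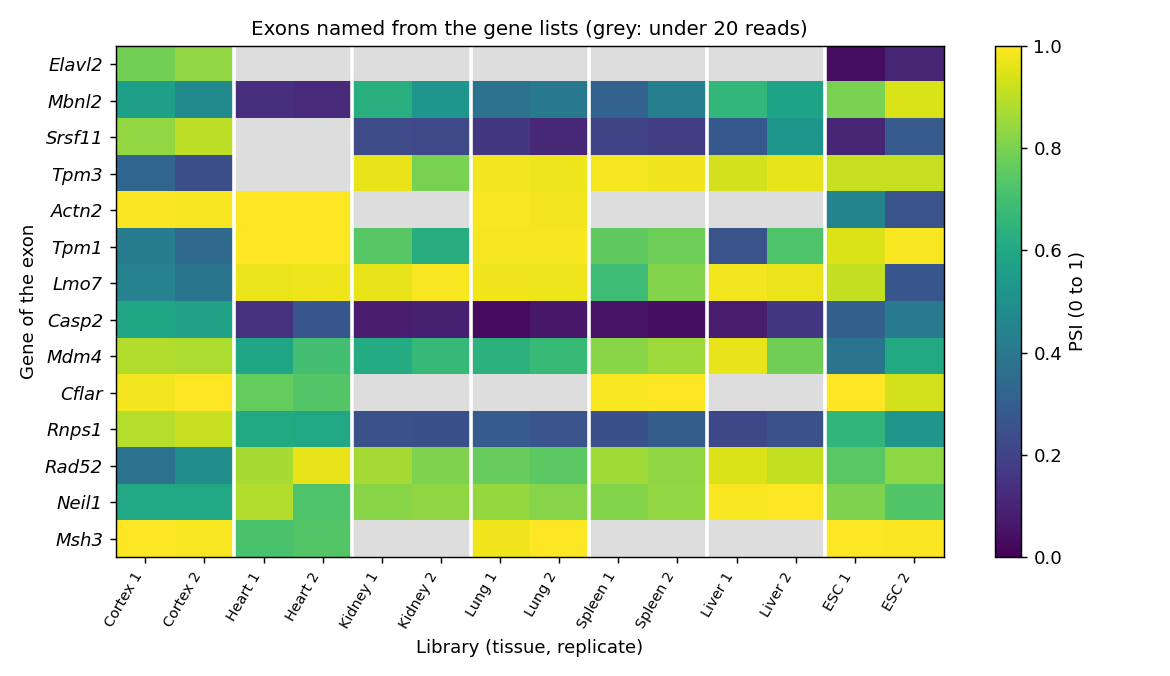
PSI of the exons named from the gene lists that are not among the 12 named for their range, 1 row per gene and 1 column per library. Colours run from 0 (dark) to 1 (yellow), with grey where a tissue had under 20 reads. Cortex is the lowest tissue for Tpm3, Tpm1, Lmo7, Rad52 and Neil1 and the highest for Elavl2, Srsf11, Casp2, Mdm4 and Rnps1, while Lmo7 differs between the 2 ESC clones (0.91 and 0.269).

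A smaller group of exons stayed mid-range everywhere. In 241 events of 203 genes the exon was expressed in all 7 tissues with a PSI between 0.1 and 0.9 in all 14 libraries. Of these, 156 (64.7%) were still called between tissues, against 5.33% of all frame-shifting events and 8.39% of all events. A call needs a range of 0.1 or more, for which events near a PSI of 0 or 1 have little room. The higher share thus follows in part from the selection, and it was not compared with mid-range events of other lengths. The 6 genes closest to a PSI of 0.5 had no tissue mean farther than 0.111 from it. Calu (chr6:29361294-29361487, 194 nucleotides), which encodes the calcium-binding protein calumenin, lay between 0.406 and 0.522 in its 14 libraries, with 863 to 4326 reads each, and its range of 0.111 was not called (adjusted p = 0.0524). Calumenin genes carry a pair of alternative exons of equal length. Hexdc (chr11:121216893-121217076, 184 nucleotides), a hexosaminidase, lay between 0.372 and 0.617, and Senp6 (chr9:80087430-80087523, 94 nucleotides), a SUMO protease, between 0.404 and 0.616, and neither was called. Xpnpep1 (chr19:53032009-53032097, 89 nucleotides), an aminopeptidase, was called with a range of 0.179 between cortex (0.584 and 0.57) and heart (0.371 and 0.424). Its alleles were called apart in 2 of 3 tissues tested, with 0.682 and 0.65 on C57BL/6J against 0.263 and 0.278 on SPRET/EiJ in kidney. The alleles of Hexdc were not tested in any tissue, and those of Senp6 and Calu were tested in heart alone and not called.

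The alleles of the other 2 genes lay near opposite ends. Zscan21 (chr5:138117836-138117920, 85 nucleotides), a zinc finger protein, and Mrps17 (chr5:129715684-129715763, 80 nucleotides), a protein of the small mitochondrial ribosomal subunit, had total PSI values between 0.352 and 0.634 in all libraries. On the C57BL/6J allele the exon of Mrps17 had a PSI of at least 0.919 in each of 14 libraries, and on the SPRET/EiJ allele of at most 0.0625. For Zscan21 the C57BL/6J values were at least 0.947 and the SPRET/EiJ values at most 0.133. Each allele was thus near one end, and the total near 0.5 was their average. Such pairs were rare: alleles above 0.9 and below 0.1 were found in 4 to 8 mid-range frame-shifting events per tissue, for example in 8 of 857 in cortex.

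Both alleles of a hybrid share one cellular environment, so that comparing them asks for differences that act in cis. Events were tested with at least 20 reads per allele and replicate where the PSI of allele-assigned reads lay within 0.1 of that of all reads. In spleen 215 of 9746 frame-shifting events (2.21%) were called, against 2.17% of all events tested. Cortex had 197 of 9691 (2.03%, all events 1.85%), heart 146 of 7143 (2.04%, all events 2.24%) and kidney 184 of 10454 (1.76%, all events 1.88%). Lung gave 202 of 9642 (2.1%, all events 2.06%), liver 68 of 5641 (1.21%, all events 1.29%) and ESC 38 of 11208 (0.339%, all events 0.258%). The shares were thus close to those of all events. Among mid-range frame-shifting events they were higher, between 12.4% in liver and 21.6% in kidney for the organs and 4.41% in ESC. A call needs a difference of 0.1 or more, for which events near a PSI of 0 or 1 have little room. The higher share thus follows in part from the selection, and it was not compared with mid-range events of other lengths.

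The share of called events was lower among frame-shifting than frame-preserving exons in 6 of 7 tissues, with lung as the exception. For frame-preserving exons cortex gave 2.45%, heart 2.31%, kidney 2.33%, lung 2.08%, spleen 2.43%, liver 1.37% and ESC 0.375%. The difference averaged -0.235 percentage points with an SD of 0.205 (exact two-sided sign-flip test over 7 tissues, p = 0.0312, adjusted p = 0.0312). The tissues share events and animals, and 210 frame-shifting events were called in 2 or more of them, so the 7 differences are not independent. Without ESC the difference was -0.268 points over 6 tissues and no longer passed (exact sign-flip test, adjusted p = 0.0625). The smallest p that 6 tissues allow is higher than that of 7.

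Both alleles were read from one library. When that library entered the fit as a replicate block, cortex had 348 called frame-shifting events, heart 108, kidney 327, lung 189, spleen 134 and liver 133. ESC had 0 by the same limma-moderated test, although 360 events had an unadjusted p under 0.05 and a difference of 0.1 or more. The block leaves 1 residual degree of freedom per event at most. With it, the called share of frame-shifting minus frame-preserving exons averaged -0.195 points over the tissues. The prior degrees of freedom set to 4, without the block, left between 5 events in ESC and 113 in kidney.

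At least 1 tissue gave a call in 546 of 19917 tested frame-shifting events (2.74%), in 531 exons of 473 genes. In 336 of them the call came from 1 tissue, in 210 from 2 or more, and in 17, of 12 genes, from all 7. Of the 19917 events, 16028 were tested in 2 or more tissues. These counts over tissues were taken for frame-shifting events alone, so they are not shown to be particular to them. With the library block 715 events were called in at least 1 tissue, 249 in 2 or more and 0 in all 7, since ESC had no call, and of the 17 events 16 were called in 6 tissues and the other in 5. The C57BL/6J allele had the higher inclusion in 129 of the 197 events called in cortex (65.5%) and in 27 of the 38 called in ESC (71.1%). Heart gave 61%, kidney 60.3%, lung 56.9%, spleen 55.8% and liver 48.5%. The split was taken for frame-shifting events alone, so it is not shown to be particular to them. The exon coordinates are those of the C57BL/6J genome, and their part in this split was not tested.

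The 10 exons named for calls in the most tissues, taken by the size of the difference among the 12 genes with such calls, were called in all 7 without the block. With it, none was called in ESC, Thyn1 was called in 5 tissues and the other 9 in 6. In Mrps17, Zscan21, Cdc26, Mtif2, Tmem234 and Pex2 the C57BL/6J allele had the higher inclusion, and in Rcbtb1, Nudt5, Slu7 and Thyn1 the SPRET/EiJ allele. No library of one allele overlapped the other allele within a tissue. In Cdc26 (chr4:62404456-62404552, 97 nucleotides), a subunit of the anaphase-promoting complex, the C57BL/6J values lay between 0.918 and 0.992 and the SPRET/EiJ values between 0.0265 and 0.183. Mtif2 (chr11:29526693-29526843, 151 nucleotides), a mitochondrial translation initiation factor, was included at 0.529 to 1 on C57BL/6J and at no more than 0.0244 on SPRET/EiJ. The spread was widest in lung, at 0.529 and 0.892 on C57BL/6J. Rcbtb1 (chr14:59205625-59205722, 98 nucleotides) had the reverse order, with 0.0222 to 0.258 on C57BL/6J and 0.687 to 0.979 on SPRET/EiJ.

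In other exons 1 allele was near an end in all tissues, while the other varied between them. Pex2 (chr3:5562669-5562732, 64 nucleotides), needed to build peroxisomes, was almost never included on SPRET/EiJ, at no more than 0.00361 in each library. On C57BL/6J it was included at 0.198 and 0.207 in heart, 0.284 and 0.295 in cortex, 0.367 and 0.369 in liver and 0.71 and 0.777 in ESC. Nudt5 (chr2:5848108-5848190, 83 nucleotides), which cleaves ADP-sugars, had at most 0.12 on C57BL/6J, and on SPRET/EiJ 0.661 and 0.731 in cortex against 0.336 and 0.326 in kidney. In Thyn1 (chr9:27006801-27006951, 151 nucleotides) the SPRET/EiJ values were at least 0.968, and the C57BL/6J values lay between 0.421 in ESC and 0.74 in cortex. Tmem234 (chr4:129601870-129601961, 92 nucleotides), a membrane protein, had at most 0.0904 on SPRET/EiJ, and on C57BL/6J 0.304 and 0.368 in cortex and 0.648 and 0.615 in lung. The differences between tissues in allelic ΔPSI were not tested.

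Slu7 (chr11:43436354-43436432, 79 nucleotides), a factor of the second step of splicing, was mid-range on both alleles. The C57BL/6J allele had 0.418 and 0.343 in cortex, 0.251 and 0.244 in lung and 0.14 and 0.176 in spleen. The SPRET/EiJ allele had 0.788 and 0.71, 0.686 and 0.684, and 0.652 and 0.546 in the same tissues. Both alleles were lower in spleen than in cortex, and the difference between them lay between -0.352 in heart and -0.441 in spleen. In the Rnps1 event described above, the exon of 181 nucleotides was called between alleles in 5 of 7 tissues, with higher inclusion on SPRET/EiJ, for example 0.768 and 0.707 against 0.136 and 0.213 in lung. Of the lists, splicing factors had 5 called among 235 tested events and DNA repair genes 2 among 218, while no event was called among 63 in genes known for mutually exclusive exons. Synapse and neuron genes had 2 among 93, muscle genes 1 among 51, apoptosis genes 2 among 48 (4.17%) and NMD factors 2 among 33 (6.06%), against 2.74% of all tested frame-shifting events.

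**Figure D4:**
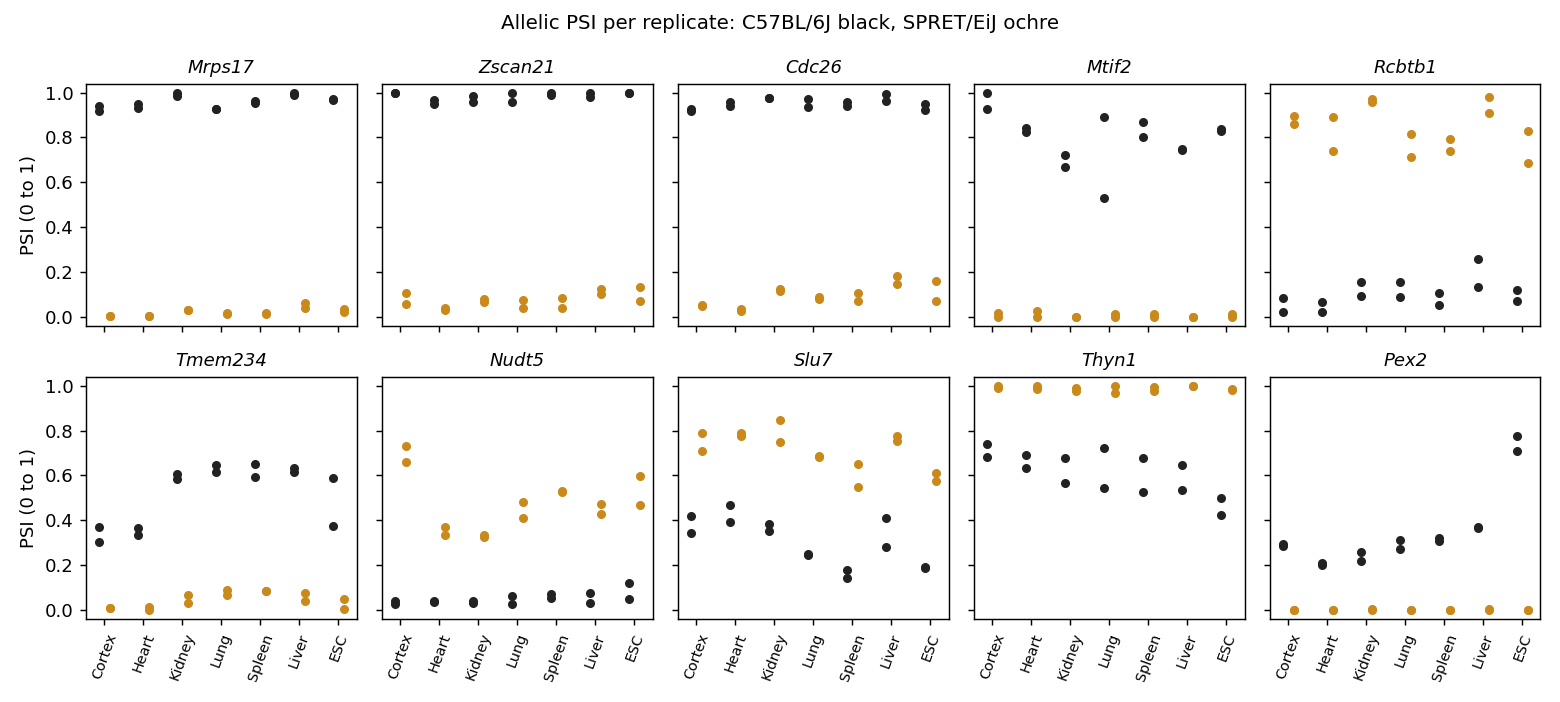
PSI of each allele in each replicate for 10 of the exons called between alleles in all 7 tissues without the library block (the largest differences, 1 exon per gene), with C57BL/6J in black and SPRET/EiJ in ochre and 1 column per tissue. The alleles do not overlap within a tissue in any panel, and in Pex2 and Nudt5 one allele stays low while the other varies between tissues.

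After PladB, frame-shifting exons were tested in fibroblasts with at least 20 reads in each of the 4 libraries, which left 13711 events. PSI was called lower in 1156 of them (8.43%) and higher in 50 (0.365%). Of all 54535 events tested, 8.51% were lower and 0.187% higher, and of 9287 frame-preserving events, 8.36% were lower and 0.226% higher. The median change was -0.00341 over all frame-shifting events and -0.208 over those called lower. Most of the falls, 974 of 1156, began above 0.9 in DMSO, where 12083 of the 13711 tested events lay. Over all events, 4191 of 4642 falls began there. The share of mid-range frame-shifting events was 6.25% in DMSO and 14.8% after PladB. It was 4.33% and 13.1% over all events tested, and 8.7% and 17.1% in frame-preserving events. With the prior degrees of freedom set to 4, 703 events were called lower and 14 higher. Of the frame-shifting events tested in both settings, 908 were called between tissues and 1206 after PladB, and 188 in both, which is 20.7% of the former and 15.6% of the latter. Of all 13711 events tested in both, 6.62% were called between tissues and 8.8% after PladB, and the overlap was not tested.

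The 4 largest falls began at almost full inclusion. Dyrk1b (chr7:28181509-28181672, 164 nucleotides), a protein kinase, had a PSI of 1 in both DMSO libraries and 0.115 and 0.0607 after PladB (ΔPSI -0.912, adjusted p = 1.11e-106 with limma moderation). R3hcc1l (chr19:42581920-42581990, 71 nucleotides) went from 1 and 0.988 to 0.0938 and 0.125. Zfp324 (chr7:12968795-12968921, 127 nucleotides), a zinc finger protein, went from 0.944 and 0.943 to 0.187 and 0.0298. Ccnt2 (chr1:127801606-127801676, 71 nucleotides), the cyclin T2 of transcription elongation, went from 1 in both libraries to 0.134 and 0.223. The TPM of R3hcc1l was 11.9 in DMSO and 2.07 after PladB, and that of Zfp324 14.2 and 5.16, with as few as 46 and 47 reads in a library. In the 7 tissues these 4 exons varied little, with ranges of 0.00434 to 0.0774, and none was called there.

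The 4 largest rises were in exons that were mid-range in DMSO. Clk4 (chr11:51268165-51268231, 67 nucleotides), a kinase of SR proteins, rose from 0.393 and 0.387 to 1 and 0.722, with as few as 20 reads in a library. Zfp414 (chr17:33629622-33629698, 77 nucleotides) rose from 0.286 and 0.244 to 0.884 and 0.631, and Zfp672 (chr11:58322569-58322729, 161 nucleotides) from 0.552 and 0.531 to 1 in both. The exon of 2410018M08Rik (chr5:129899003-129899093, 91 nucleotides) rose from 0.289 and 0.391 to 0.892 and 0.83. The TPM of Zfp672 was 17.7 in DMSO and 0.863 after PladB, and that of Clk4 32 and 10.4, so that the later PSI rests on fewer transcripts. The Clk4 exon also varied between tissues, from 0.217 and 0.214 in spleen to 0.845 and 0.805 in cortex (adjusted p = 6.52e-08). In another event of this exon, with different flanking exons, the range was 0.302, against 0.609 here.

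**Figure D5:**
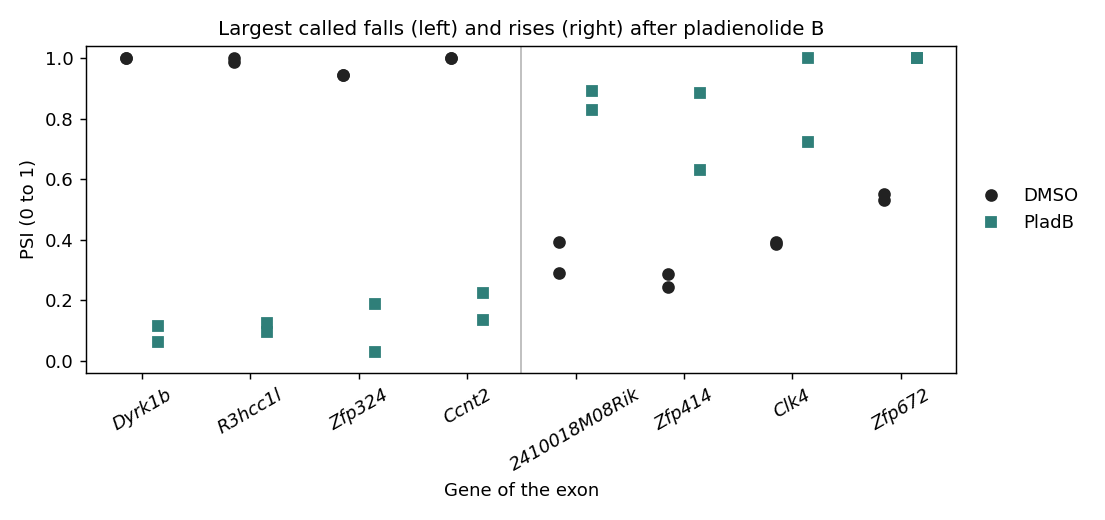
PSI in each of 2 DMSO (black circles) and 2 PladB (green squares) fibroblast libraries for the 4 largest called falls and the 4 largest called rises among frame-shifting exons. The falls start between 0.943 and 1 in DMSO and end at or below 0.223, and the rises start at or below 0.552.

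Other exons described above also moved. Rad52 fell from 0.732 and 0.777 to 0.17 and 0.158, Mdm4 from 0.809 and 0.801 to 0.337 and 0.263, Slu7 from 0.568 and 0.628 to 0.265 and 0.247 and Cdc26 from 0.753 in both libraries to 0.52 and 0.561. Mbnl2 rose from 0.372 and 0.358 to 0.509 and 0.54. The TPM of these genes was lower after PladB, so the later PSI rests on fewer transcripts. It was 13.5 in DMSO and 2.8 after PladB for Rad52, 32 and 3.18 for Mdm4 and 48.8 and 15.4 for Slu7. For Cdc26 it was 13.3 and 6.14, and for Mbnl2 259.1 and 44.5. Rad52 had as few as 28 reads in a library and Mdm4 as few as 33. Mfn2 lay at or below 0.00834 in all 4 libraries, and Calu lay between 0.477 and 0.505. Of all frame-shifting events 8.43% were called lower, and of all events 8.51%. Of the 223 tested events in splicing factors, 30 (13.5%) were called lower and 3 higher, and of 39 in apoptosis genes 10 (25.6%) lower and 0 higher. DNA repair genes had 8 lower (6.2%) and 0 higher among 129, and genes known for mutually exclusive exons 3 lower (5.88%) and 0 higher among 51. Muscle genes had 3 lower among 26 (11.5%), synapse and neuron genes 8 among 52 (15.4%) and NMD factors 5 among 31 (16.1%), with 0 higher in each.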

How the data were processed

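RNA-seq libraries of 7 tissues and of treated fibroblasts from C57BL/6J x SPRET/EiJ hybrids were used. The authors aligned reads with HISAT2 2.0.1 to both genomes (mm10 coordinates) and deposited raw rMATS junction counts, each cell listing both replicates, with the effective lengths of both forms as a score written by rMATS. The deposited gene expression is in TPM. Columns with the authors' p-values, FDR and inclusion level differences were not used.

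PSI was recomputed from counts and lengths. Events needed 20 reads per replicate, and per allele in allelic tests, where total and allele-assigned PSI also had to lie within 0.1. Counts were fitted with a quasi-binomial logistic model, and dispersions were moderated with limma 3.58.1 toward a prior that follows depth. F tests were adjusted (Benjamini-Hochberg) across the whole set of events, and calls needed an adjusted p under 0.05 and a PSI difference of 0.1 or more. Both alleles of a library come from the same RNA, and their replicate differences correlated with r between 0.0347 and 0.459. The p-values measure only the spread between these samples.

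Choosing the prior was not blind to calls. A first form drew it from all events with 5 or more reads of the rarer form, and a second only from groups with such reads. Each was run on the real files and its count of calls over all events was seen. Both gave infinite prior degrees of freedom, which ignores the spread of single events. The last form, from events with 2 or more residual degrees of freedom, was run next, its calls were seen too, and it was kept. Simulation came afterwards. In simulated tissue data (47963 events, 200 changed) the form kept recovered 33% of changes of 0.2 and 69% of changes of 0.4, and 28 of its 130 calls were false. The second form gave 109 false calls and the first 211. In simulated cortex alleles (24378 events) 6 of 123 calls were false, and in simulated PladB data (54535 events) 5 of 100. The real PladB fit had prior degrees of freedom of 652, which leaves almost no allowance for single events, so its adjusted p-values may be too small. A stricter prior with degrees of freedom set to 4, added after these results were seen, gave 0 false calls in each simulation and recovered 32%, 8% and 21% of the changes of 0.4.

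The members, gene lists and tests were chosen with earlier results of these data known. Named exons, 1 per gene, were the 12 called with the widest tissue range, no overlap of the extreme tissues and 50 or more reads there, the 6 closest to 0.5 in all libraries, the 10 called between alleles in the most tissues, the 4 largest falls and rises after PladB, and 3 per gene list. Where several events of a gene qualified, the one with the most reads was taken, so a PSI belongs to 1 set of flanking exons. Shares were compared with exact sign-flip tests over tissues. R 4.3.3 and Python 3.11.15 were used.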

Additional observations from a re-analysis of the deposited data

Results flagged for a closer look

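In 2 frame-shifting events the alleles were called in opposite directions in 2 tissues, and both replicates of each tissue moved that way. They were chosen after their values were seen, and the difference between the tissues was not tested. In Tbxas1 (chr6:39083693-39083855, 163 nucleotides), thromboxane synthase, PSI in kidney was 0.892 and 0.943 on C57BL/6J and 0.524 and 0.585 on SPRET/EiJ, a difference of 0.363 (limma adjusted p = 0.0398). In lung the same exon had 0.76 and 0.797 against 0.985 and 0.989, a difference of -0.208 (adjusted p = 0.004). In Art3 (chr5:92412165-92412271, 107 nucleotides), an ADP-ribosyltransferase, the difference was 0.142 in heart, from 0.677 and 0.669 against 0.549 and 0.512, and -0.382 in lung, from 0.0846 and 0.0578 against 0.323 and 0.583.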

How the results depend on the processing

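The mid-range difference between the exon classes kept its direction under every alternative run, from -2.92 points with mid-range set to 0.2 to 0.8 to -3.89 without ESC, and was -3.6 to -3.89 when a replicate or ESC was left out. The allelic difference lay between -0.0901 and -0.319. Without ESC neither difference (-3.89 and -0.268) passed, both with an adjusted exact p of 0.0625, and under the other alternatives both passed with adjusted exact p between 0.0156 and 0.0469. Leaving out ESC and the other forms of the prior were chosen after seeing the data. Thinned to 20 reads, 262 frame-shifting events were called between tissues, where fewer reads enter the test. Leaving out 1 replicate gave 1047 to 1579. Replicate differences hardly correlated between tissues (r from -0.078 to 0.0581). This does not tell whether a replicate number marks the same animal. With a replicate block 1212 frame-shifting events were called between tissues.

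Allelic counts also moved. The library as a replicate block gave 348 in cortex, 327 in kidney, 134 in spleen, 133 in liver and 0 in ESC. The first form of the prior gave 325 in cortex, 294 in kidney, 145 in liver and 121 in ESC, and the second 315, 282, 133 and 94. Prior degrees of freedom set to 4 gave 113 in kidney, 74 in cortex, 55 in both heart and lung, 48 in spleen, 39 in liver and 5 in ESC, and a prior without depth trend gave 44 in liver. After PladB the same setting of 4 gave 703 lower and 14 higher, and a minimum of 50 reads gave 32 higher. Leaving out 1 fibroblast library gave 872 to 1099 lower and 26 to 35 higher (27 without PladB replicate 1 and 26 without DMSO replicate 1). The cause of these shifts was not tested.

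For named exons, 1676 alternative values were computed, of which 1590 kept direction and, where a test was run, the call. Of the others, 81 lost the call, 4 gained it and 1 reversed (Cdc26, Liver minus Heart PSI, -0.00431 when thinned to 20 reads). Allelic values with 1 replicate left out were not tested, and they count as kept by their sign alone. For exons not called between tissues and not named as mid-range, the alternative tissue values were left out after small uncalled differences had been seen to change sign. The edgeR alternative was not run, since the cells hold lists and not single counts.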
